A study of Homo sapiens with 6 samples.

Results

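Genes of mitosis were followed in RNA held by AGO2, the Argonaute protein that carries microRNAs to their target transcripts, in PC3 cells. The 55 genes were listed by their function in mitosis, with earlier results of these data known, and 54 of them had a probe set that reads a single gene, out of 18417 genes measured. The remaining gene, CENPA, shared its probe set with another gene and was not analysed. Where a gene had more than 1 probe set, the brightest over the 6 arrays was used, which was a choice only for BIRC5. PC3 is an established, androgen-independent prostate cancer cell line. The cells received either a mimic of miR-205 (3 arrays) or a negative control mimic (3 arrays), and every array held RNA from an immunoprecipitation with the same AGO2 antibody. Input RNA was not analysed here, so a smaller share of a transcript on AGO2, less of the transcript in each cell and fewer cells in mitosis cannot be told apart. Replicates are biological according to the series design, without further detail, and how independent the cultures were is not stated in the sources used here.

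In mitosis the cyclin B-CDK1 kinase drives entry, condensin and topoisomerase II shape the chromosomes, kinetochores tie them to spindle microtubules, and the spindle checkpoint holds back the anaphase-promoting complex (APC/C) until every chromosome is attached. Most genes of this programme are transcribed late in the cell cycle under the MuvB complex, which binds the cell cycle homology region of their promoters and works with B-MYB and FOXM1, while NF-Y binds CCAAT boxes nearby. Proliferating tumour lines such as PC3 express the programme strongly, and MKI67, which encodes Ki-67, is its usual pathology marker.

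The microRNA introduced is shown with its seed, bases 2 to 8, in capitals, because the seed pairs with target transcripts. The mature 5p strand, from RefSeq (GRCh38.p14, chr1:209432166-209432187, plus strand), was taken for the mimic, whose own sequence is not given in the sources used here.
hsa-miR-205-5p: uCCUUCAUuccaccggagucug
Transcript sequences were not used here, so seed matches in the mitosis genes were not counted.

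Promoters of 4 genes are shown, chosen after their values were seen, to set lowered genes with and without the motifs beside a raised gene. They come from the RefSeq promoter table (GRCh38.p14) and are written on the strand of the gene, as the 250 bases before the transcript start. Capitals mark TTTGAA, the cell cycle homology region hexamer, and CCAAT, each on either strand (TTCAAA and ATTGG are the reverse complements). MKI67 (chr10:128126424-128126673, minus strand) had the smallest p among the genes that were lower with miR-205 and holds both motifs, which overlap by a base in its 3′ capital run. BUB1 (chr2:110678064-110678313, minus strand) was also lower and holds CCAAT boxes without TTTGAA. KIF2C (chr1:44739587-44739836, plus strand), with a fall close to that of BUB1, holds neither motif. KIF4A (chrX:70289854-70290103, plus strand) was higher and holds both motifs.
MKI67: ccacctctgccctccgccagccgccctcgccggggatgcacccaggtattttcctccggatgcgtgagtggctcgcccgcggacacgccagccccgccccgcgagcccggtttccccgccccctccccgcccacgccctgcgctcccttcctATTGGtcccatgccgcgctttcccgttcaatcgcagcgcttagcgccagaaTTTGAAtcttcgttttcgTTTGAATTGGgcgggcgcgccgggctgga
BUB1: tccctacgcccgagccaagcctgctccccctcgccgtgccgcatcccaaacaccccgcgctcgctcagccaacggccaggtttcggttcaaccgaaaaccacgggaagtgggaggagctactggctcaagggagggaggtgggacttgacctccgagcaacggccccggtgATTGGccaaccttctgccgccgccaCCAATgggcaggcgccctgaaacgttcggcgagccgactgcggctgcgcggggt
KIF2C: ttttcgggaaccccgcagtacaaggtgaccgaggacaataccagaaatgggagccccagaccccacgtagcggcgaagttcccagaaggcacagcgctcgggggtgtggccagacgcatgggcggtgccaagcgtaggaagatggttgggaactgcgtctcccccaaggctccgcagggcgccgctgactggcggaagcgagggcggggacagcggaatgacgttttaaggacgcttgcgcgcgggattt
KIF4A: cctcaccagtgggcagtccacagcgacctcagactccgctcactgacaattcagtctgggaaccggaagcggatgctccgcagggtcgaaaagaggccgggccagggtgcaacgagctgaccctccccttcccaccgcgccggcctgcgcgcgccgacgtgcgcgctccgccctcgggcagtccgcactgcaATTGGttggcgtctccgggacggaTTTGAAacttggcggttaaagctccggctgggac
Among the 12 lowered genes with the smallest p, 6 more have a TTTGAA match wholly before the start, and the 30 bases around the match closest to the start are set side by side, with capitals for that match only. Of the rest, CENPF and KIF14 hold a match only after the start and FOXM1 has no entry. The positions are CDCA8 (chr1:37692481-37692510, plus strand), ESPL1 (chr12:53268256-53268285, plus strand), PRC1 (chr15:90994538-90994567, minus strand), NCAPD2 (chr12:6493945-6493974, plus strand), ASPM (chr1:197146765-197146794, minus strand) and TOP2A (chr17:40418030-40418059, minus strand).
CDCA8: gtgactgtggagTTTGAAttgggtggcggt
ESPL1: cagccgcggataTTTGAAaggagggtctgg
PRC1: cccgtggcgcggTTTGAAattttgcggggc
NCAPD2: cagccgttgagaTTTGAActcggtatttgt
ASPM: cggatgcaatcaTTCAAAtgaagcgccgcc
TOP2A: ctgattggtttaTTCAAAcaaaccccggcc
In CDCA8, ESPL1 and PRC1 the match begins 23, 31 and 20 bases before the start. In ASPM, NCAPD2 and TOP2A it lies further out, at 113, 145 and 151 bases. For the raised gene SMC2 the match spans the start itself, in 1 of its 2 annotated windows.

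Most mitosis genes were lower with miR-205. Of the 54 measured, 33 fell (61.1%), 2 rose (3.7%) and 19 did not pass, at an adjusted p under 0.05 by limma over all genes. Over all 18417 genes, 14.0% fell and 12.6% rose. These include dim genes, and when only the 13686 genes with a mean of at least 6 were tested, 20.3% fell and 18.1% rose. The falls were modest. The median log2 difference (miR-205 minus control) of the 54 genes was -0.28, beside -0.02 for all genes, and 5 genes fell by at least 1.5-fold, namely MKI67, BUB1, KIF2C, CENPF and NCAPD2. Every miR-205 array lay below every control array for 40 of the 54 genes and above for 3, beside 22.2% and 19.9% of all genes. Differences were negative for 47 of the 54 (87%, beside 53.8% of all genes). Where a role below has 0 higher genes by limma, 0 were also higher at an unadjusted p under 0.05, except CENPK among the centromere genes.

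**Figure D1:**
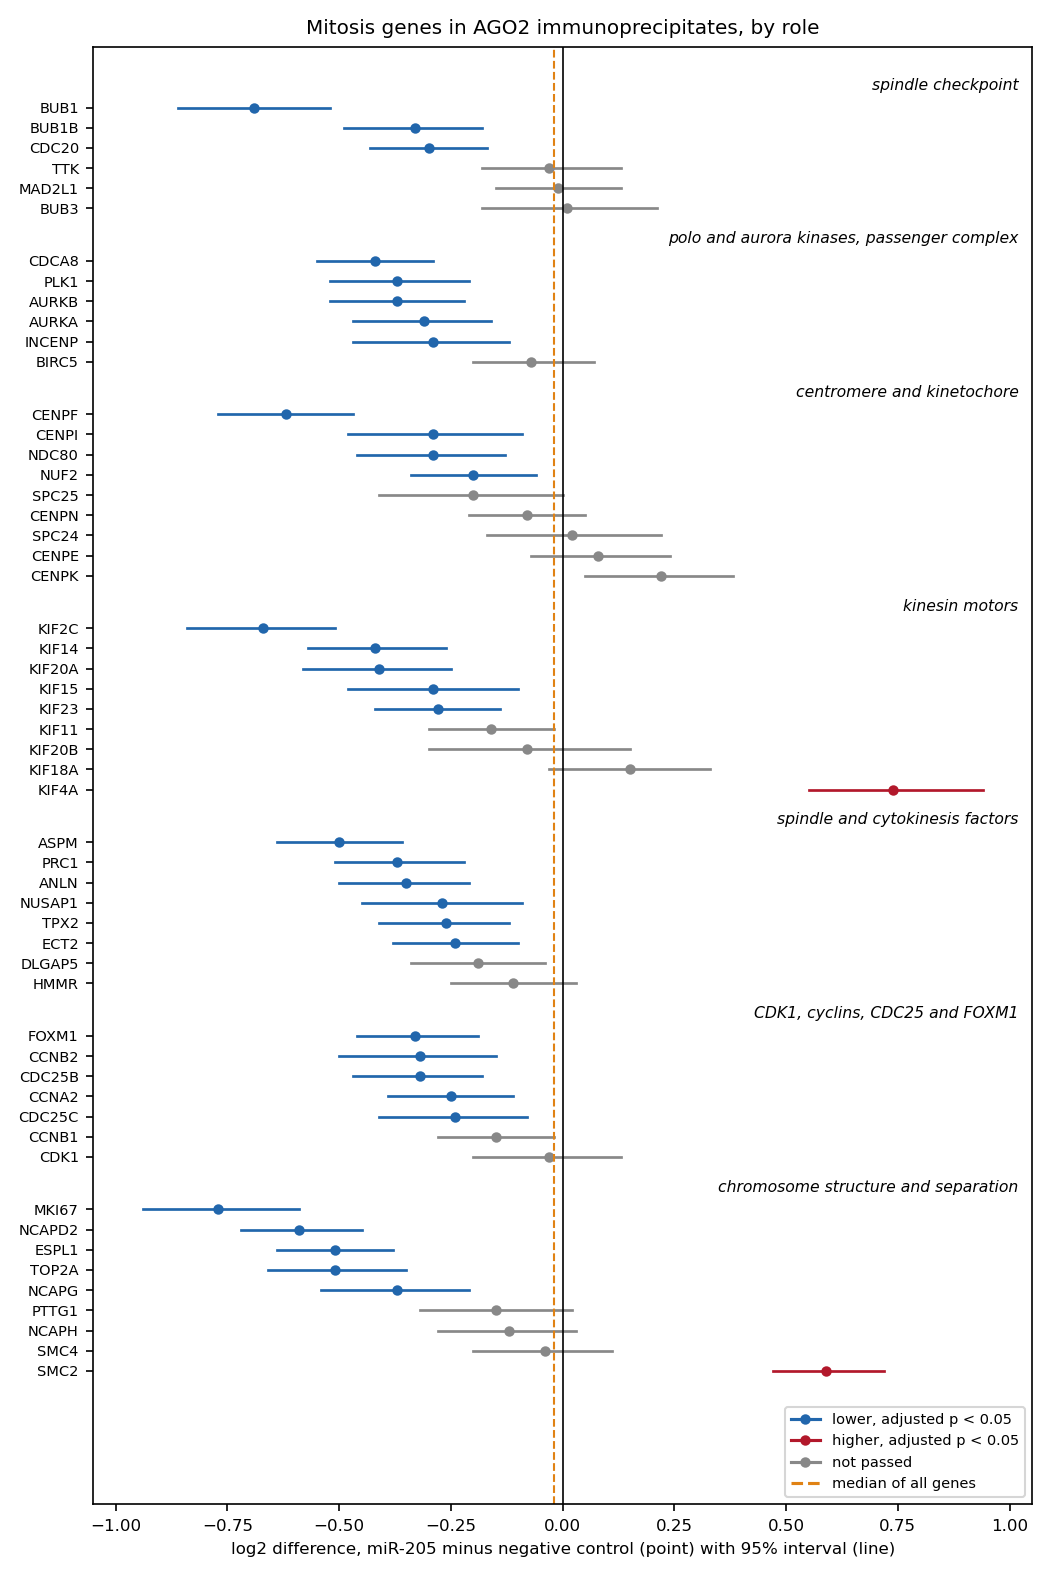
Log2 difference between miR-205 and negative control arrays for each of the 54 mitosis genes, grouped by role, with the 95% interval from limma (n = 3 arrays per group). Blue genes fell, red genes rose and grey genes did not pass an adjusted p of 0.05; the dashed line is the median of all genes, -0.02. Blue points lie between -0.77 (MKI67) and -0.20 (NUF2), and KIF4A (0.74) and SMC2 (0.59) lie furthest to the right.

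The arrays within each group were close to each other for these genes. The standard deviation over 3 arrays had a median of 0.06 with miR-205 and 0.08 with the control. Set against each gene's control mean, the median mitosis gene stood at -0.26, -0.29 and -0.26 on the miR-205 arrays and at 0.00, 0.03 and -0.03 on control replicates 1, 2 and 3. Control replicate 2 was the highest control array for 30 of the 54 genes. Without it 29 genes fell and 3 rose, beside 15.6% and 14.5% of all genes. Leaving out miR-205 replicate 2 gave the fewest falls, 22, beside 9.65% of all genes, and the median of the mitosis genes was then -0.25. All 54 means were above 6.04, a guide to background taken as the level that 95% of the 341 olfactory receptor genes do not exceed. The labelled cell line was checked on epithelial and lineage genes. The prostate secretory genes KLK3 and KLK2 were at 6.08 and 6.39 in control arrays, near background. Of the leukocyte genes, PTPRC (3.61), CD3E (5.25) and LYZ (4.27) were below background there, and CD14 (6.42) was above it. Of the fibroblast genes, DCN (3.17) and LUM (3.03) were below it. PDGFRB (6.35), COL1A2 (6.63), COL3A1 (6.92) and COL1A1 (8.94) were above it. Between the groups, 0 of 4 leukocyte markers passed the test and 1 of 6 fibroblast markers, LUM, was higher below background (3.40 against 3.03). That test does not show whether a marker is present. All 5 genes listed as typical of the line differed between the groups, and EPCAM was only at the level of the array medians (6.82 to 6.86) in control arrays. KRT8 stood at 12.07 against 11.18, KRT18 at 11.93 against 11.38 and EPCAM at 9.12 against 6.83, while VIM (12.43 against 12.68) and CD44 (11.69 against 11.98) were lower, and the part of this in the results below was not tested.

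Among spindle checkpoint genes, 3 of 6 fell and 0 rose (median -0.16). BUB1, a checkpoint kinase that marks centromeres for cohesin protection, read 10.05, 10.03 and 10.27 on the miR-205 arrays against 10.82, 10.78 and 10.83 on the control arrays. The groups were well apart, although miR-205 replicate 3 stood above the other miR-205 arrays. The difference was -0.69 ± 0.08 (log2 ± SE, n = 3 per group), with an adjusted p of 0.000356. BUB1B, whose protein BUBR1 restrains the APC/C, fell by 0.33 (adjusted p = 0.0077), and CDC20, the APC/C activator that the checkpoint captures, by 0.30 (adjusted p = 0.00517). The other checkpoint genes gave differences near 0. BUB3, the partner that recruits BUB1 and BUBR1 to kinetochores, read 11.25, 11.25 and 11.19 with miR-205 and 11.15, 11.41 and 11.10 with the control, and its groups overlapped (0.01, 95% interval -0.18 to 0.21). MAD2L1, the checkpoint effector (-0.01, -0.15 to 0.13), and TTK, the kinase that starts the signal (-0.03, -0.18 to 0.13), overlapped too.

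Kinases of mitosis and the chromosomal passenger complex fell almost throughout, 5 of 6 with 0 higher and a median of -0.34. CDCA8, which encodes borealin, read 9.21, 9.24 and 9.25 with miR-205 against 9.69, 9.62 and 9.65, a difference of -0.42 ± 0.06 with an adjusted p of 0.000907. These groups each spanned under 0.1, so the gap was several times the spread. AURKB, the kinase of the same complex, fell by 0.37 (adjusted p = 0.00414). INCENP, its scaffold, fell by 0.29 (adjusted p = 0.0228), but leaving out any 1 miR-205 array ended that call (0.0588 to 0.0769). BIRC5, which encodes survivin, the remaining subunit, read 10.08, 10.13 and 10.17 with miR-205 and 10.21, 10.23 and 10.15 with the control. Its groups overlapped, with a difference of -0.07 (-0.20 to 0.07). PLK1, the polo kinase of centrosomes and kinetochores, fell by 0.37 (adjusted p = 0.00487), and AURKA, the spindle pole aurora kinase, by 0.31 (adjusted p = 0.00897).

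Centromere and kinetochore genes had the smallest share of lower genes of the 7 roles (44.4%), with 4 of 9 lower, 0 higher and a median of -0.20. CENPF, a large outer kinetochore protein, read 9.84, 9.76 and 9.73 with miR-205 against 10.33, 10.49 and 10.37. The groups lay well apart, and the difference was -0.62 ± 0.07 (adjusted p = 0.00035). Within the microtubule-binding Ndc80 complex, NDC80 fell by 0.29 (adjusted p = 0.0173) and NUF2 by 0.20 (adjusted p = 0.0422), while SPC25 (-0.20, -0.41 to 0.00) and SPC24 (0.02, -0.17 to 0.22) did not pass. SPC24 read 8.94, 8.88 and 9.03 with miR-205 and 8.94, 9.08 and 8.77 with the control, which overlap fully. These calls changed when 1 array was left out. NDC80 was lost without miR-205 replicate 2 (adjusted p = 0.0742) or control replicate 1 (0.0556), and SPC25 passed without miR-205 replicate 3 (-0.29, adjusted p = 0.0406). NUF2 was lost without any 1 array (0.0554 to 0.151). With all arrays kept, NUF2 was also lost when all probe sets were tested (0.0795) or the trend with signal level was removed (0.0539). A block for replicate number ended the call too (0.0786). The NUF2 difference stayed between -0.23 and -0.17 under every alternative.

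The constitutive centromere network bridges CENP-A chromatin and the outer kinetochore. Its gene CENPI fell by 0.29 (adjusted p = 0.0385) and CENPN, which reads CENP-A nucleosomes, gave -0.08 (-0.21 to 0.05). CENPK, a direct partner of CENPI, lay on the other side, with 9.86, 9.74 and 9.89 against 9.50, 9.67 and 9.66. All miR-205 arrays were above all control arrays, but the difference of 0.22 did not pass (adjusted p = 0.0542). It passed without control replicate 2 (0.25, adjusted p = 0.0438) and under 5 other alternatives, among them centring the arrays on their medians (adjusted p = 0.0477). The call of CENPI was lost without miR-205 replicate 2 (adjusted p = 0.137) or 3 (0.118) or without control replicate 1 (0.104) or 3 (0.125). Without miR-205 replicate 2 or control replicate 1, 1 gene of this role was lower, and without control replicate 3, 2 were. Of all genes, 9.65%, 11.4% and 10.4% were lower under these omissions. CENPE, a kinesin that carries chromosomes to the spindle equator, gave 0.08 (-0.07 to 0.24).

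The 9 kinesin motors included 5 that fell and 1 that rose (median -0.28). KIF2C, the microtubule depolymerase MCAK, read 8.36, 8.28 and 8.39 with miR-205 against 8.92, 9.0 and 9.13, a difference of -0.67 ± 0.07 (adjusted p = 0.00035). KIF14, a motor of cytokinesis, read 9.27, 9.08 and 9.19 against 9.63, 9.54 and 9.62 (-0.42 ± 0.07, adjusted p = 0.00274). For both genes the highest miR-205 array was below the lowest control array. KIF20A and KIF23, motors of the central spindle, fell by 0.41 (adjusted p = 0.00385) and 0.28 (adjusted p = 0.00887). KIF15, which helps keep spindle poles apart, fell by 0.29 (adjusted p = 0.0303), a call lost without miR-205 replicate 2 (0.097) or 3 (0.107) or control replicate 1 (0.0914) or 2 (0.0591).

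KIF4A moved the other way. This chromokinesin, which binds PRC1 at the central spindle and condensin on chromosome arms, read 9.09, 9.04 and 8.95 with miR-205 against 8.37, 8.10 and 8.37, with control replicate 2 the lowest array. The difference was 0.74 ± 0.09 (adjusted p = 0.000471). KIF11, the motor that builds the bipolar spindle, did not pass (-0.16, adjusted p = 0.0896), although its groups did not overlap. KIF18A, which limits spindle length, gave 0.15 (-0.03 to 0.33). KIF20B, a cytokinesis motor, read 7.15, 7.05 and 7.40 with miR-205 and 7.39, 7.26 and 7.19 with the control, overlapping groups with a difference of -0.08 (-0.30 to 0.15).

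**Figure D2:**
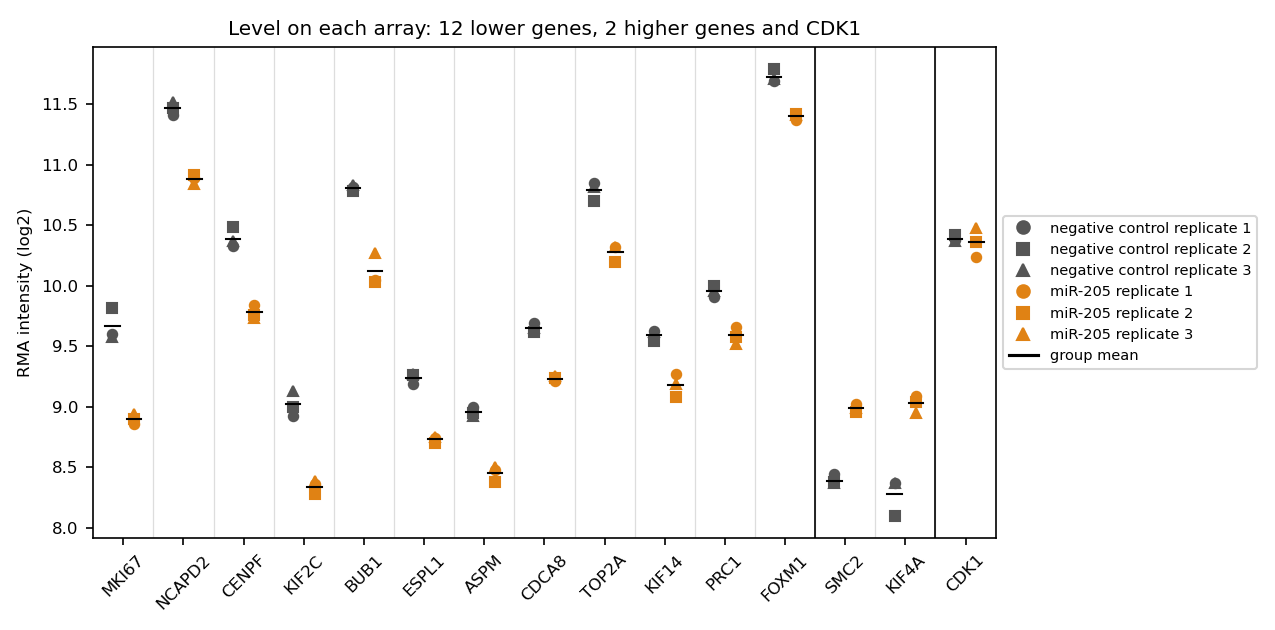
RMA intensity (log2) on each of the 6 arrays for the 12 lowered mitosis genes with the smallest p, the 2 raised genes and CDK1, with symbols for replicates and a bar for each group mean. In the first 12 genes all miR-205 arrays (orange) lie below all control arrays (grey), in SMC2 and KIF4A they lie above, and in CDK1 they overlap. Heights of different genes are not comparable, since each probe set has its own response.

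All 8 spindle and cytokinesis factors had every miR-205 array below every control array, beside 22.2% of all genes. Of the 8, 6 passed as lower (75%, beside 14.0% of all genes), with a median of -0.27. ASPM, a spindle pole protein whose loss causes microcephaly, read 8.48, 8.38 and 8.5 against 9.0, 8.95 and 8.92 (-0.50 ± 0.06, adjusted p = 0.000592). PRC1, which bundles the microtubules of the central spindle, read 9.66, 9.58 and 9.52 against 9.91, 10 and 9.96 (-0.37 ± 0.06, adjusted p = 0.00307). Both gaps exceeded the spread within either group. ANLN, the anillin scaffold of the contractile ring, fell by 0.35 (adjusted p = 0.00443). NUSAP1, a microtubule stabiliser, fell by 0.27, TPX2, the activator of Aurora A, by 0.26, and ECT2, which switches on RhoA for furrowing, by 0.24, with adjusted p of 0.0353, 0.0164 and 0.0183. DLGAP5, a spindle assembly factor also known as HURP, gave -0.19 (adjusted p = 0.061) and passed under 5 of the 16 alternatives. HMMR, a spindle pole protein, read 8.84, 8.73 and 8.78 against 8.84, 8.94 and 8.89, a difference of -0.11 (-0.25 to 0.03) in which miR-205 replicate 1 and control replicate 1 nearly touched. Without miR-205 replicate 2, 3 genes of this role were lower in place of 6, since TPX2 (adjusted p = 0.0625), ECT2 (0.0797) and NUSAP1 (0.1) did not pass. Of all genes, 9.65% were lower under that omission. TPX2 was also lost without miR-205 replicate 3 (0.0529), ECT2 without miR-205 replicate 1 (0.0669) or control replicate 1 (0.0543), and NUSAP1 without any 1 array but control replicate 3 (0.0525 to 0.116). With all arrays kept, NUSAP1 was lost with a block for replicate number (0.0566) and when all probe sets were tested (0.0805).

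CDK1 itself did not pass, while 5 of the 7 genes of CDK1 control fell and 0 rose (median -0.25). CDK1, the kinase of mitotic entry, read 10.24, 10.36 and 10.48 with miR-205 and 10.38, 10.42 and 10.37 with the control. Its miR-205 arrays spread on both sides of the control arrays, and the difference was -0.03 (-0.20 to 0.13). FOXM1, the transcription factor of late cell cycle genes, read 11.37, 11.42 and 11.41 against 11.69, 11.79 and 11.71 (-0.33 ± 0.06, adjusted p = 0.00385). The phosphatase genes CDC25B and CDC25C, whose products activate CDK1, fell by 0.32 (adjusted p = 0.0064) and 0.24 (adjusted p = 0.0394). Of the cyclins, CCNB2 fell by 0.32 (adjusted p = 0.0147) and CCNA2 by 0.25 (adjusted p = 0.0145), while CCNB1 gave -0.15 (adjusted p = 0.0915) without overlap of the groups. Here too, calls changed when 1 array was left out. Without miR-205 replicate 1, 2 or 3, the genes lower numbered 3, 2 and 3, and the median of this role was -0.26, -0.25 and -0.28. Of all genes, 10.7%, 9.65% and 10% fell under these omissions. CCNA2 was lost without miR-205 replicate 1 (0.061) or 2 (0.0556), CCNB2 without miR-205 replicate 2 (0.059) or 3 (0.0557), and CDC25C without any 1 array but control replicate 1 (0.0744 to 0.132). With all arrays kept, CDC25C was lost with a block for replicate number (0.0656) and when all probe sets were tested (0.0841).

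Genes of chromosome structure and separation held both the largest fall and a clear rise, with 5 of 9 lower, 1 higher and a median of -0.37. MKI67, whose protein coats mitotic chromosomes, read 8.86, 8.90 and 8.94 with miR-205 against 9.60, 9.82 and 9.58 with the control. The difference was -0.77 ± 0.08, or 0.587 times the control, with an adjusted p of 0.000231. TOP2A, the topoisomerase that untangles sister chromatids, read 10.32, 10.20 and 10.32 against 10.85, 10.70 and 10.82 (-0.51 ± 0.07, adjusted p = 0.000961). ESPL1, the separase that cuts cohesin, read 8.74, 8.70 and 8.75 against 9.19, 9.26 and 9.27 (-0.51 ± 0.06, adjusted p = 0.000431). For each of these the groups were far apart relative to their spread. PTTG1, the securin that holds separase inactive, gave -0.15 (-0.32 to 0.02).

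The 5 subunits of condensin I, the ring complex that compacts mitotic chromosomes, did not move alike. NCAPD2, a HEAT-repeat subunit, read 10.89, 10.92 and 10.84 against 11.41, 11.47 and 11.52 (-0.59 ± 0.06, adjusted p = 0.000286), and NCAPG, the other HEAT-repeat subunit, fell by 0.37 (adjusted p = 0.00562). The ring-closing kleisin NCAPH gave -0.12 (-0.28 to 0.03). SMC4, an ATPase of the ring, read 10.96, 10.90 and 11.02 against 11.11, 10.94 and 10.97 and overlapped (-0.04, -0.20 to 0.11). SMC2, its ATPase partner, rose, with 9.02, 8.96 and 8.99 against 8.44, 8.38 and 8.37 (0.59 ± 0.06, adjusted p = 0.000189). The SMC2 groups each spanned under 0.1, and this was the smallest p of all 54 mitosis genes.

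Other mitotic genes, from a list of 124 of which 118 were measured, were less one-sided. Of these, 33 were lower (28%, beside 14.0% of all genes) and 19 higher (16.1%, near the 12.6% of all genes), with a median of -0.02. The 19 became 12 without miR-205 replicate 1 or 2 or control replicate 3. Of all genes, 8.79%, 8.62% and 9.26% rose under these omissions. Of the spindle, centrosome and cytokinesis genes, 16 of 32 were lower (50%, beside 14.0% of all genes). A further 4 were higher (12.5%, near the 12.6% of all genes), and the median was -0.21. GTSE1, a microtubule-binding protein of late cell cycle, read 8.28, 8.18 and 8.17 against 9.29, 9.27 and 9.40, a wide gap of -1.11 ± 0.06 (adjusted p = 2.34e-05). KIF18B, a depolymerising kinesin, fell by 0.83 (adjusted p = 9.76e-05), CIT, the citron kinase of abscission, by 0.57 (adjusted p = 0.00036) and CKAP2, a spindle protein, by 0.55 (adjusted p = 0.000374). The 4 higher genes of this list became 2 without miR-205 replicate 1 or 3, when 8.79% and 9% of all genes rose.

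Kinetochore and checkpoint genes outside the members were split. Of 29, 6 were lower (20.7%, beside 14.0% of all genes) and 9 higher (31%, beside 12.6%), with a median of 0.10. HJURP, the chaperone that loads CENP-A, fell by 0.51 (adjusted p = 0.00167), and DSN1, of the Mis12 complex, by 0.39 (adjusted p = 0.00242). NSL1, also of the Mis12 complex, rose by 0.44 (adjusted p = 0.00132). CENPH, which joins CENPI and CENPK in the centromere network, read 7.86, 7.86 and 8.10 against 7.41, 7.39 and 7.28, a rise of 0.58 (adjusted p = 0.0012). Chosen after their values were seen, the network genes CENPQ (0.43), CENPW (0.39), ITGB3BP (0.37) and CENPP (0.24) rose as well, whereas CENPL (-0.37) and CENPO (-0.29) fell. CENPT (0.23), CENPM (0.17), CENPU (0.10) and CENPC (0.01), the remaining genes of that network in the list, did not pass. The 9 higher genes became 5 without miR-205 replicate 2 or control replicate 3 and when all probe sets were tested. Of all genes, 8.62% and 9.26% rose under the 2 omissions, and 7.44% of all probe sets did.

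Of 18 APC/C genes, 5 rose (27.8%, beside 12.6% of all genes) and 2 fell (11.1%, beside 14.0%), with a median of 0.10. The subunit genes ANAPC10 (0.45, adjusted p = 0.00921), ANAPC15 (0.39, adjusted p = 0.00929) and CDC27 (0.26, adjusted p = 0.0105) rose, and FZR1, the activator of late mitosis and G1, fell by 0.29 (adjusted p = 0.013). The other fall, outside the 4 smallest p of this list, was the subunit gene ANAPC1 (-0.31, adjusted p = 0.0306). The 2 falls became 0 without miR-205 replicate 1 or 3 and 1 without miR-205 replicate 2 or control replicate 1 or 3. Of all genes, 9.65% to 11.4% fell under these omissions. FZR1 had an adjusted p of 0.0515 without miR-205 replicate 1 and 0.0517 without miR-205 replicate 3. Of 14 cohesin genes, 4 fell (28.6%, beside 14.0% of all genes) and 1 rose (7.14%, beside 12.6%), with a median of -0.07. CDCA5, which encodes the cohesion protector sororin, fell by 0.66 (adjusted p = 0.000472), the loader gene NIPBL by 0.44 (adjusted p = 0.00135), PDS5B by 0.35 (adjusted p = 0.00361) and MAU2, the partner of NIPBL, by 0.28 (adjusted p = 0.0227). The call of MAU2 was lost without miR-205 replicate 1 (0.0857) or 2 (0.0591) or control replicate 3 (0.0681), and the 1 rise was lost without any 1 array but control replicate 2. Of 20 further CDK1 regulators and MuvB genes, 3 fell (15%, near the 14.0% of all genes) and 0 rose by limma (median 0.03). However, 3 were higher at an unadjusted p under 0.05, 1 passed as higher without control replicate 2 and 2 with dim genes left out. The 3 lower genes were CCNF (-0.44, adjusted p = 0.00131), MYBL2, which encodes B-MYB (-0.31, adjusted p = 0.0125), and the MuvB subunit gene LIN9 (-0.23, adjusted p = 0.0426). The LIN9 call held only without miR-205 replicate 1 among the single-array omissions (0.0596 to 0.142 in the other cases). Of 5 measured genes of condensin II and other chromosome proteins, CDCA2 (-0.52, adjusted p = 0.000377) and TOP2B (-0.38, adjusted p = 0.00753) fell and 0 rose by limma (median -0.21), with 0 also higher at an unadjusted p under 0.05.

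**Figure D3:**
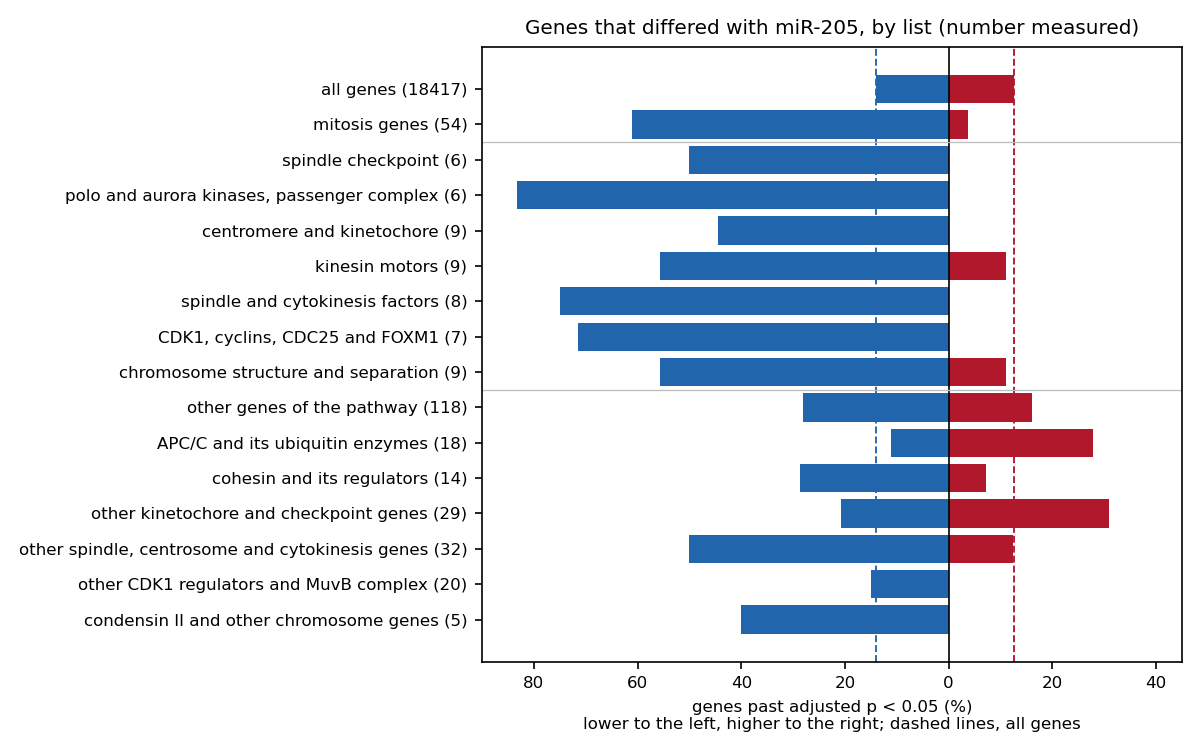
Percentage of genes in each list that fell (left, blue) or rose (right, red) at an adjusted p under 0.05, with the number measured in brackets and dashed lines at the values of all genes (14.0% and 12.6%). Mitosis genes reach 61.1% to the left and 3.7% to the right; among the other lists of the pathway, kinetochore and checkpoint genes (31%) and APC/C genes (27.8%) extend furthest to the right.

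The mitosis genes also share promoter motifs, which the list did not use. Promoters were found for 48 of the 54 measured genes, and BUB3, TTK, AURKA, BIRC5, TPX2 and FOXM1 had no entry. In the 300 bases from 250 before to 50 after the start, TTTGAA on either strand occurred in 35 of 48 genes (72.9%), beside 15.7% of the 14239 measured genes with a promoter. CCAAT on either strand occurred in 37 of 48 (77.1%), beside 42.2%. Both occurred in 27 genes (56.2%, beside 8.09%), and 3 genes, KIF2C, CENPE and CENPI, held neither. A TTTGAA match began within 50 bases of the start in 29 of 48 (60.4%), beside 4.74%. A hexamer match describes the letters of this window and does not show binding.

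Within the members the hexamer was common among genes of every outcome. TTTGAA was present in 23 of 30 genes that fell, in both that rose and in 10 of 16 that did not pass. The median log2 difference was -0.29 for the 35 genes with it and -0.25 for the 13 without. For SMC2 the table holds 2 starts, and the match is in the window of 1 of them. Outside the members the counts differed more. TTTGAA was present in 17 of 30 other pathway genes that fell (56.7%), in 23 of 57 that did not pass (40.4%) and in 2 of 17 that rose (11.8%). The share was 15.7% over the measured genes with a promoter, near that of the genes that rose. No test was made for these counts.

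**Figure D4:**
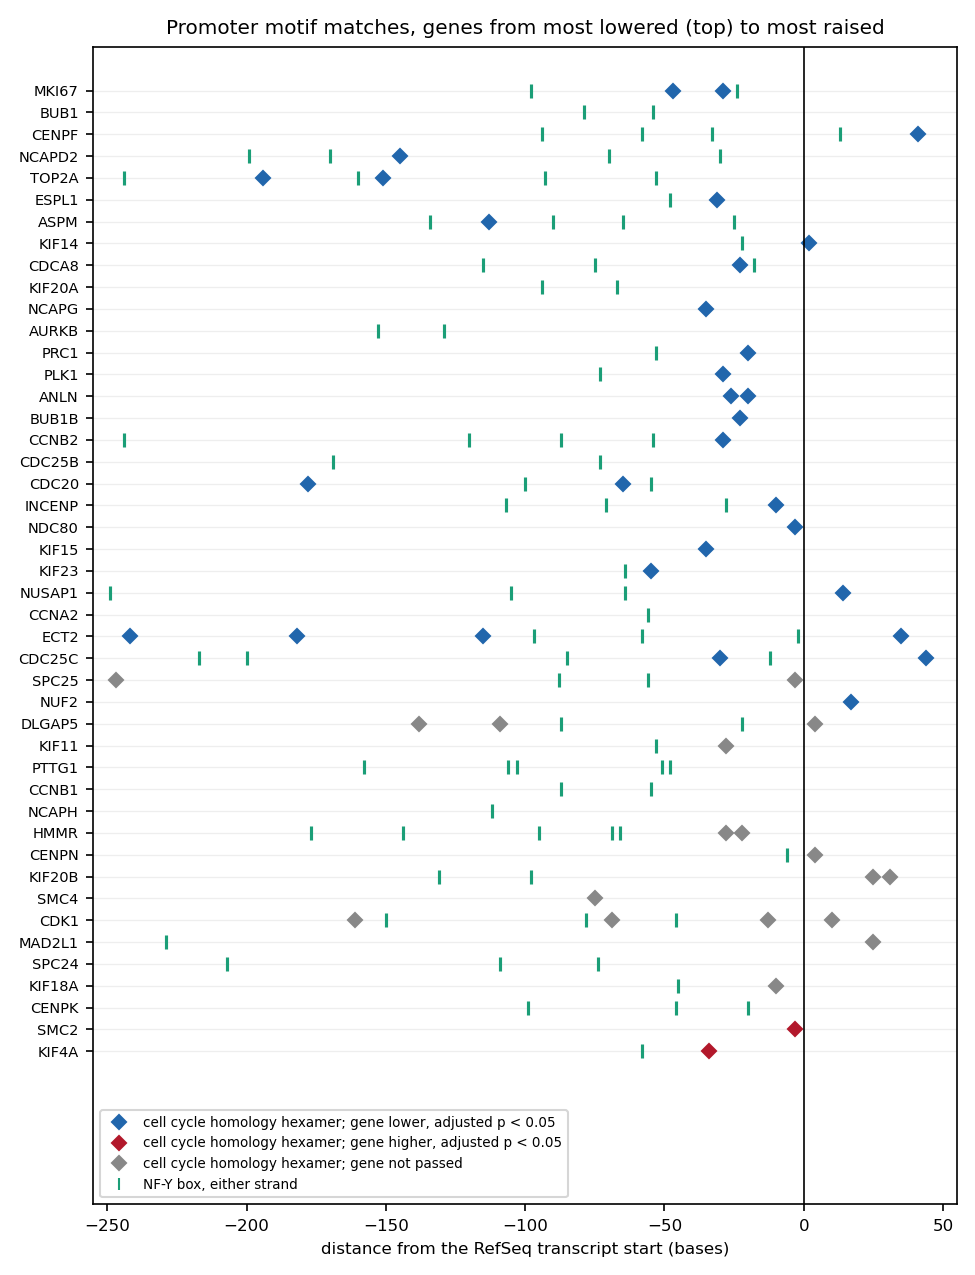
Distance from the RefSeq transcript start, in bases, of each cell cycle homology hexamer (diamonds, coloured by whether the gene fell, rose or did not pass) and each NF-Y box (green ticks) in the 300-base windows, with all starts of a gene on 1 row and genes ordered by their log2 difference. The 45 genes with a match are drawn; in 29 of the 48 genes with a promoter a diamond lies within 50 bases of the start, both among lowered genes at the top and among the other genes at the bottom.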

How the data were processed

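Affymetrix gene arrays of AGO2 immunoprecipitates from PC3 cells were compared between 3 miR-205 mimic and 3 negative control mimic samples, grouped by their titles. Per the submitters' processing notes, the deposited log2 intensities come from RMA and Affymetrix Expression Console 1.1.2, and no normalization was added to them. The table holds 33297 probe sets, of which 19460 carry 1 gene symbol in the platform annotation, for 18417 genes. Per gene the probe set with the highest mean was kept, with no filter on low values. A two-sided moderated test from limma 3.58.1 (R 4.3.3), with lmFit, eBayes and no covariate, set miR-205 against control. Its p-values were adjusted by Benjamini and Hochberg's method across all 18417 genes, and 0.05 was the threshold. SE and 95% intervals are from this fit. With 3 against 3 arrays an exact permutation test of a single value cannot go below 0.1, so none was run. The number of arrays limits the precision.

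The members, roles and other gene lists were chosen with earlier results of these data known. Per-array values are given for the 12 lowered members with the smallest p, each raised member, the members with the smallest and largest p in each role, and CDK1. Of the other pathway genes, up to 4 per list with the smallest p among those past the threshold are named, with exceptions marked. Promoter and miRNA sequences are from RefSeq (GRCh38.p14), matched by symbol for 49 of the 55 listed genes.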

Additional observations from a re-analysis of the deposited data

How the results depend on the processing

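Over 16 alternatives (repeated quantile normalization, median centring, removal of the trend with signal level, 2 filters on dim genes, the mean of a gene's probe sets, all probe sets tested, a robust variance with a trend, a block for replicate number, weighted arrays, and each array left out), the count of lowered mitosis genes ranged from 22 to 34 around 33, that of raised ones from 2 to 3, and the median from -0.29 to -0.24. With 1 array left out, 22 to 30 fell and 2 to 3 rose. Over all genes, the same omissions gave 9.65% to 15.6% lower and 8.62% to 14.5% higher. Of the 35 members called, 24 stayed past the threshold in all 16 and 11 were lost in at least 1, while 3 of the other 19 passed in at least 1. No call changed direction. When genes with a mean under 6 were left out, 34 members fell and 3 rose, beside 20.3% and 18.1% of the genes then tested. Other pathway genes that rose numbered 12 to 21 with 1 array left out, around 19. Whether the replicate numbers pair the arrays is not stated in the labels and was not settled by the values. Correlations of deviations were small for equal numbers (0.06, 0.09 and 0.01). Still, 5 of 6 arrays correlated best with the other group's array of the same number. With the replicate number as a block, 30 mitosis genes fell and 2 rose (median -0.28), and 31 other pathway genes fell and 18 rose. The number of arrays and the small size of most differences limit the calls near the threshold.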
